A study of Homo sapiens with 8 samples.

Results

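Of the 25411 genes measured in BEAS-2B cells, 37 (0.146%) were at or near 0 in untreated and in nickel-exposed cells and were expressed in both populations of nickel-washed-out cells. A gene was included if its RPKM (reads relative to the transcript length of the gene and the number of reads mapped) was at most 0.1 in each of the 4 untreated and nickel-exposed libraries and at least 0.5 in each of the 4 washed-out libraries. These RPKM values chose the genes, so the rise after washout is a description and was not tested. The list was led by SLC38A5, SLC12A7, CADM3, SLAIN1, MGMT and ROBO1, each with a mean above 3 RPKM over the 4 washed-out libraries. It held 32 protein-coding and 5 noncoding genes from 17 chromosomes. Chromosomes 1 and 2 had 7 each, which was 0.281% and 0.431% of the genes measured there.

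BEAS-2B is an immortalized human bronchial epithelial cell line, and RNA-Seq was performed on 8 libraries in 4 groups of 2. Untreated cells (UT) received no nickel. Nickel-exposed cells (Ni-E) were cultured with 100 µM NiCl2 for 6 weeks. Ni-W cells went through that exposure, were plated without nickel, and are a randomly chosen population grown from a colony and kept nickel-free for over 6 months (nickel-washed-out). The HCl3 cells carry the same treatment text as Ni-W, with no length of washout and no stated relation to Ni-W. In the labels, experiment 2 is given for both Ni-E libraries, experiments 3 and 4 for the HCl3 libraries, and none for UT or Ni-W. The sources used here describe no colony step for UT, so washout of nickel, growth from few cells and time in culture cannot be told apart. Total counts were between 26383920 and 45692298 reads per library.

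Nickel is a carcinogenic metal that binds little to DNA, and much of its known action on gene expression runs through chromatin. Nickel ions can take the place of iron in the dioxygenases that remove methyl groups from histones and DNA. Genes that are silent in a cell type are often held by repressive histone marks or by methylation of the CpG dinucleotides in their promoters, and such states can be passed on through cell division.

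The labelled cell type was checked against epithelial markers. The simple epithelial keratin genes KRT8, KRT18 and KRT7 were between 144.46 and 480.56 RPKM in all 8 libraries, whereas CDH1 (E-cadherin) was at most 0.11 RPKM, KRT5 at most 0.03 and TP63 at 0. Of 9 mesenchymal markers, VIM, COL1A1 and PDGFRB were at 10.58 RPKM or more in each library, COL1A2 reached 2.05 and LUM 0.91, and COL3A1, PDGFRA, FAP and DCN were at most 0.07. Their sum, nearly all from VIM and COL1A1, was between 1831 and 1877 RPKM in UT, about 1181 in Ni-E, between 1059 and 1261 in Ni-W and between 1976 and 2011 in HCl3. Summed levels of 8 urothelial markers were between 1.13 and 2.19 RPKM, with UPK3A and KRT20 at 0, and those of 3 endothelial markers between 0.01 and 0.11. The summed level of 5 blood markers was between 1.06 and 1.97 RPKM in UT and Ni-E and between 2.86 and 4.24 in Ni-W and HCl3, with CD14 making up most of it, while PTPRC was at most 0.04 and CD3E was at 0. A list of 7 neural or neuroendocrine markers summed to between 28.22 and 42.25 RPKM, nearly all of it from TUBB3 and lowest in Ni-E, with SYP at most 0.44. From the blood, urothelial and endothelial lists, PTPRC, UPK3A and PECAM1 were at or near 0 in the libraries that expressed the 37 genes. Not all markers of these lists were. In each of those libraries CD14 was between 2.84 and 4.15 RPKM, and the urothelial sum was at least 1.13. UPK1A reached 0.55 RPKM in Ni-W replicate 1 and UPK3B 0.64 in Ni-W replicate 2. In bulk RNA, fewer cells that express a gene and less RNA per cell cannot be told apart.

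The promoters of the 3 most highly expressed of the 37 genes are shown because these genes went from at most 20 reads in an earlier group to at least 687 in a washed-out one. Each sequence runs 5′ to 3′ from 250 bases before to 50 bases after the start of the gene as RefSeq gives it (GRCh38.p14), and capitals mark each CpG dinucleotide. The SLC38A5 promoter (chrX:48470211-48470510, minus strand) holds 7 CpG, that of SLC12A7 (chr5:1112014-1112313, minus strand) 39 and that of CADM3 (chr1:159171365-159171664, plus strand) 23.
SLC38A5: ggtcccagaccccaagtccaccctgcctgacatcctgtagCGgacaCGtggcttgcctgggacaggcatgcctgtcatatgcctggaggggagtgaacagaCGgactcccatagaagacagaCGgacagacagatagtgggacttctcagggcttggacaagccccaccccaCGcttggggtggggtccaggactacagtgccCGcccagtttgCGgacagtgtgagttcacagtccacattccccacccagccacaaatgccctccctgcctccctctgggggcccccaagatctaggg
SLC12A7: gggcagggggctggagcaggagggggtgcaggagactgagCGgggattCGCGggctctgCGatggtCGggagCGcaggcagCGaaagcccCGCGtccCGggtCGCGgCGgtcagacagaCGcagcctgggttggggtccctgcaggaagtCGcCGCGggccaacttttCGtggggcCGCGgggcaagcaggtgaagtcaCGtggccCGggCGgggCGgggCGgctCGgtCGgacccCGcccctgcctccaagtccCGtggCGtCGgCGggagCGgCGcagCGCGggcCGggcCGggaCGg
CADM3: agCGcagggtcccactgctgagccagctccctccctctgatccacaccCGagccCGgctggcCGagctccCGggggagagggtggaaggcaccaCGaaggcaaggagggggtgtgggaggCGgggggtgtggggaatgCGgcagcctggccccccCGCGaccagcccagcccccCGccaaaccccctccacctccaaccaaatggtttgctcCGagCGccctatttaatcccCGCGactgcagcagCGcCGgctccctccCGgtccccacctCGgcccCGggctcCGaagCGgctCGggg
A CpG-poor promoter and a CpG-dense promoter thus lead the list, and the counts for all promoters follow after the expression values.

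The UT libraries held 96 and 61 reads of the 37 genes together, and the Ni-E libraries 110 and 132. After washout these were 15201 and 9921 reads for Ni-W, while HCl3 had 8445 and 9022. The summed RPKM of the 37 genes was 0.81 in each UT library, 0.95 and 1.07 in Ni-E, against 89.55 and 85.74 in Ni-W as well as 67.17 and 67.07 in HCl3. No read at all was found in the 4 earlier libraries for MGMT, ZNF883, SNORD116-4, GALC and ZNF347. A count of 0 in a library still allows up to 3 reads, so these genes were below detection at this depth rather than shown to be absent.

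**Figure D1:**
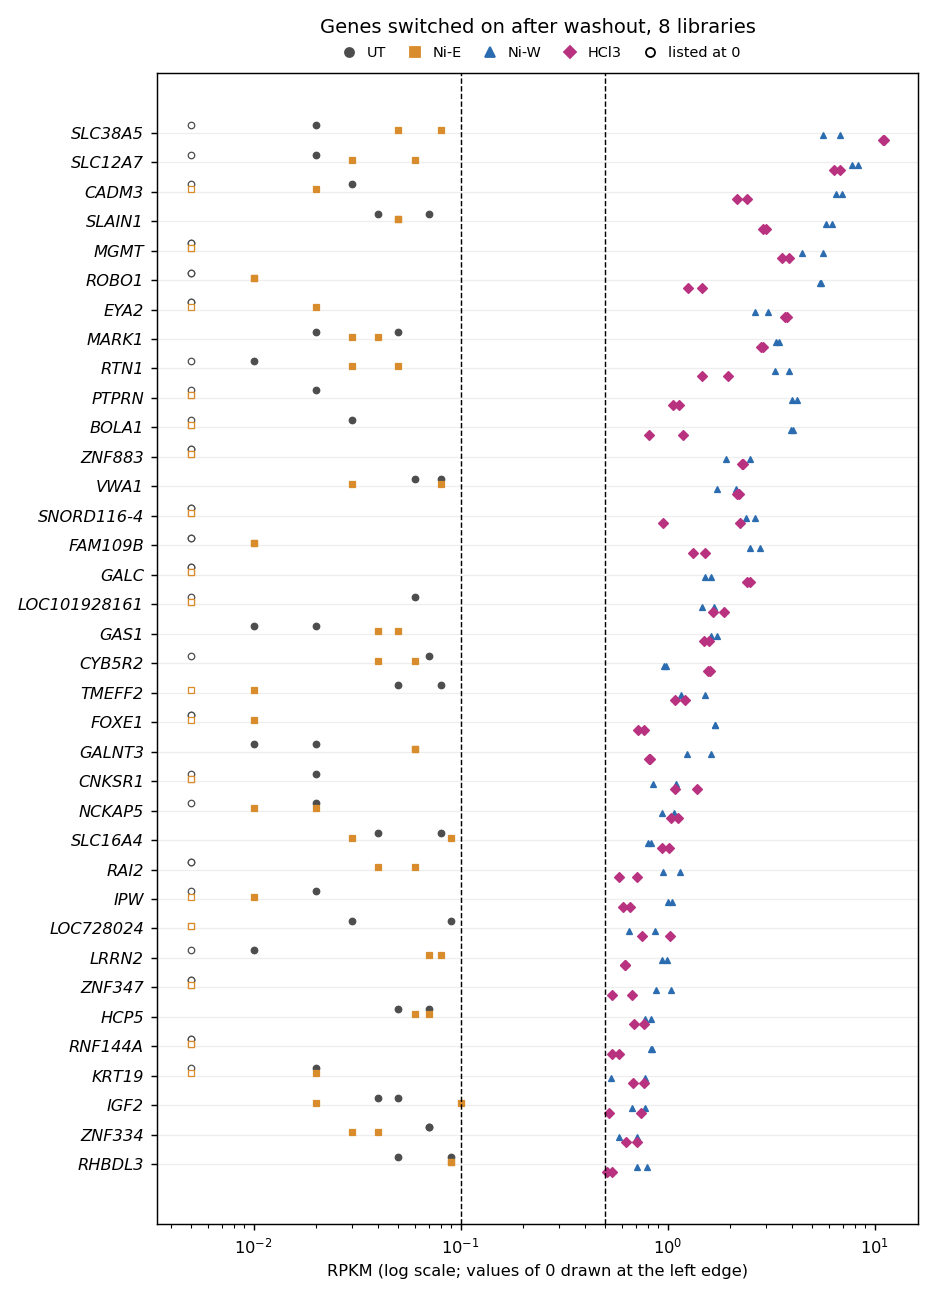
RPKM (horizontal log axis) of 36 of the 37 genes in each of the 8 libraries, ordered by mean RPKM in the washed-out libraries. Each point is 1 library, open symbols mark values of 0, and dashed lines mark the limits of 0.1 and 0.5 RPKM that chose the genes. SLC38A5 reached 11.06 RPKM in HCl3, and most genes lay between 0.5 and 3 RPKM in Ni-W and HCl3.

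The levels after washout were low to moderate, and the changes were from almost nothing. Fold changes are given here as the ratio of the summed reads of the 2 libraries of each group, scaled by their summed total counts. Where a group had no read in both libraries, 3 reads over the group were used and the ratio is a lower bound. Over the 37 genes, the median ratio with these bounds was 111 for Ni-W over UT and 74.4 for HCl3 over UT. The corresponding medians over Ni-E were 97.4 for Ni-W and 82.1 for HCl3. Among genes with at least 1 UT read, the ratio of Ni-W to UT ranged from 10.1 (RHBDL3) to 1093 (PTPRN). The ratio of PTPRN rests on 1 UT read, with a 95% interval of 196 to 43197. Intervals given for these ratios are 95% exact intervals and cover counting error only.

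The membrane transporters SLC38A5 and SLC12A7 held the top of the list, and SLC16A4 ranked 25 of 37. They were 3 of the 489 solute carrier, ABC and related transporter genes (0.613%), against 0.146% of all genes, and this share was not tested. SLC38A5, an importer of glutamine and other neutral amino acids, had 0.02 and 0 RPKM in UT and 0.05 and 0.08 in Ni-E, then 6.79 and 5.65 in Ni-W, while HCl3 had 10.98 and 11.06. It was the only one of the 37 above 10 RPKM, and both HCl3 libraries were above both Ni-W libraries. Such a lack of overlap between Ni-W and HCl3 was found for 27 of the 37 genes and for 61.6% of all genes tested. For SLC38A5 the ratio of HCl3 to UT was 787 (95% interval 217 to 6500), on 1853 against 2 reads. SLC12A7, which moves potassium and chloride out of cells, had 0 and 0.02 RPKM in UT and 0.03 and 0.06 in Ni-E, but 8.28 and 7.79 in Ni-W and, in HCl3, 6.38 and 6.83. Here the Ni-W libraries were the higher ones, and the order of the populations was the reverse of that for SLC38A5. SLC16A4, of the monocarboxylate transporter family, stayed between 0.03 and 0.09 RPKM in UT and Ni-E and reached 0.83 and 0.80 in Ni-W, while HCl3 had 1.01 and 0.94.

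Genes with roles in cell adhesion, guidance and the secretory pathway are described together next, a grouping made by hand and not tested. CADM3, an immunoglobulin-type adhesion molecule best known from neurons, had 0 and 0.03 RPKM in UT and 0 and 0.02 in Ni-E, against 6.98 and 6.49 in Ni-W as well as 2.17 and 2.42 in HCl3. ROBO1, the receptor for SLIT guidance proteins, had 0 in both UT libraries, 0.01 in both Ni-E libraries, then 5.44 and 5.49 in Ni-W, while HCl3 had 1.47 and 1.25. Both genes were far above their earlier levels in both populations, with Ni-W the higher one. ROBO1 had no UT read and 3449 Ni-W reads, which made it at least 955-fold higher in Ni-W and at least 236-fold higher in HCl3. PTPRN, a protein of dense-core secretory vesicles from the receptor tyrosine phosphatase family, had 0 and 0.02 RPKM in UT and 0 in both Ni-E libraries, but 3.97 and 4.21 in Ni-W and, in HCl3, 1.13 and 1.06. RTN1, a reticulon of the endoplasmic reticulum that marks neuroendocrine cells, had 0.01 and 0 RPKM in UT and 0.05 and 0.03 in Ni-E, against 3.28 and 3.86 in Ni-W as well as 1.46 and 1.95 in HCl3. In all 4 genes the lowest Ni-W library was above the highest HCl3 library. Reads of CADM3 and ROBO1 could include reads of genes that overlap them on the opposite strand (CADM3-AS1 and LOC101927374), because it was not stated whether counting used the strand of a read. CADM3-AS1 itself was listed at no more than 0.04 RPKM in any library.

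Microtubule regulators were present with SLAIN1 and MARK1. SLAIN1, which binds growing microtubule ends, had 0.04 and 0.07 RPKM in UT and 0.05 in both Ni-E libraries, then 5.81 and 6.22 in Ni-W, while HCl3 had 2.89 and 3.00. MARK1, a kinase that loosens microtubule-associated proteins from microtubules, had 0.05 and 0.02 RPKM in UT and 0.04 and 0.03 in Ni-E, but 3.43 and 3.35 in Ni-W and, in HCl3, 2.90 and 2.81. In both genes the Ni-W libraries were above the HCl3 libraries.

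Among the enzymes, MGMT, which removes alkyl groups from guanine in damaged DNA, had no read in UT or Ni-E, against 5.62 and 4.43 RPKM in Ni-W as well as 3.55 and 3.84 in HCl3. With 561 Ni-W reads and 394 HCl3 reads it was at least 155-fold and at least 112-fold higher than in UT. GALC, the lysosomal galactosylceramidase, also had no read before washout and reached 1.51 and 1.61 RPKM in Ni-W, while HCl3 had 2.41 and 2.51. BOLA1, a mitochondrial protein linked to iron-sulfur cluster assembly, had 0.03 and 0 RPKM in UT and 0 in both Ni-E libraries, then 4.03 and 3.95 in Ni-W, while HCl3 had 1.19 and 0.81. GALC was higher in HCl3 and BOLA1 in Ni-W, with no overlap of the libraries in either case.

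EYA2 and FOXE1 were among the developmental transcription regulators on the list. EYA2, a transcriptional coactivator and phosphatase, had 1 read in the 4 earlier libraries (0.02 RPKM in a Ni-E library), but 3.04 and 2.64 RPKM in Ni-W and, in HCl3, 3.69 and 3.75. FOXE1, a forkhead factor of the thyroid and foregut, had 1 earlier read as well (0.01 RPKM in a Ni-E library), against 1.70 and 1.69 in Ni-W as well as 0.72 and 0.77 in HCl3. Both HCl3 libraries were above both Ni-W libraries for EYA2 and below them for FOXE1.

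Zinc finger genes, most of which encode DNA-binding repressors, also gave 3 of the 37 genes, out of 623 (0.482%, against 0.146% of all genes, not tested). ZNF883 had no read before washout, but 2.51 and 1.92 RPKM in Ni-W and, in HCl3, 2.29 and 2.32. ZNF347 had no read before washout either, against 1.04 and 0.88 RPKM in Ni-W as well as 0.67 and 0.54 in HCl3. ZNF334 had 0.07 RPKM in both UT libraries, 0.04 and 0.03 in Ni-E, then 0.58 and 0.71 in Ni-W, while HCl3 had 0.71 and 0.63. The libraries of the populations overlapped for ZNF883 and ZNF334 but not for ZNF347. Zinc finger genes have close relatives, and the authors removed reads with several alignments, so their levels may be understated.

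The noncoding genes were SNORD116-4, LOC101928161, IPW, LOC728024 and HCP5. SNORD116-4, a small nucleolar RNA gene of the Prader-Willi region, had no read before washout, but 2.38 and 2.64 RPKM in Ni-W and, in HCl3, 2.23 and 0.95. Its 98-bp length made an RPKM above 2 out of 12 and 9 reads in Ni-W, and the HCl3 libraries had 9 and 4 reads, so its level is imprecise. IPW, a long noncoding RNA of the same region, had 0.02 and 0 RPKM in UT and 0.01 and 0 in Ni-E, against 1.05 and 1.00 in Ni-W as well as 0.66 and 0.61 in HCl3. LOC101928161 had 0 and 0.06 RPKM in UT and 0 in both Ni-E libraries, then 1.46 and 1.68 in Ni-W, while HCl3 had 1.87 and 1.66. It lies inside NCKAP5 on the opposite strand, and NCKAP5 itself had at most 0.02 RPKM before washout, but 1.07 and 0.94 in Ni-W and, in HCl3, 1.04 and 1.12. Reads of this pair may have been counted for both genes.

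The remaining genes on the list are given by their range. VWA1, a matrix protein, lay between 1.73 and 2.21 RPKM over the 4 washed-out libraries, and FAM109B, of the endosome, between 1.33 and 2.78. GAS1, a surface protein that binds hedgehog ligands, lay between 1.5 and 1.73 RPKM, and GALNT3, which starts mucin-type glycosylation, between 0.81 and 1.62. KRT19, a simple epithelial keratin, lay between 0.53 and 0.78 RPKM, against at least 207.5 for KRT18 in the same libraries. CYB5R2, TMEFF2, CNKSR1, RAI2, LRRN2, HCP5 and RNF144A lay between 0.54 and 1.60 RPKM. Of all 37 genes, 8 overlap a gene on the opposite strand, among them RNF144A and LOC728024, and 5 overlap one on the same strand, which for SLC12A7, EYA2, PTPRN and NCKAP5 is a miRNA gene.

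The edges of the list were set by few reads. IGF2, a fetal growth factor, had 0.04 and 0.05 RPKM in UT and 0.02 and 0.10 in Ni-E, against 0.67 and 0.78 in Ni-W as well as 0.52 and 0.74 in HCl3. It was the gene nearest to the upper limit and among those nearest to the lower limit, with LOC728024 (0.09 RPKM in a UT library) and RHBDL3 (0.51 RPKM in an HCl3 library) beside it. ACTC1 and GALNT12 missed the list with 0.11 RPKM in an earlier library, and CEMIP and MARCO with 0.48 and 0.47 RPKM in a Ni-W library. IGF2, LOC728024 and RHBDL3 had 34, 6 and 58 reads in the 4 earlier libraries together, so membership near the limits is imprecise. Applied to Ni-W alone the rule gave 70 genes, of which the 37 were 52.9%, and applied to HCl3 alone it gave 56 genes, of which they were 66.1%. The reverse pattern, at least 0.5 RPKM in each UT and Ni-E library and at most 0.1 in each Ni-W and HCl3 library, was found for 4 genes.

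The comparison of HCl3 with Ni-W asks whether the populations expressed these genes at the same level. This contrast was not used to choose the genes, other than that both populations had to reach 0.5 RPKM. Of the 37 genes, 12 (32.4%) were called differentially expressed in the DESeq2 test (adjusted P value under 0.05 and at least 1.5-fold), against 4.9% of the 14605 genes tested. Of these, 10 were lower and 2 were higher in HCl3, where 1.72% of all genes tested were lower and 3.18% were higher. The median log2 fold change was −0.24 over the 37 genes and −0.00 over all genes tested, and 24 of the 37 were negative. The 37 genes had to be expressed in both populations and were free of a limit only above 0.5 RPKM, so their share is described here and was not tested against other genes.

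The largest differences were in ROBO1, BOLA1, PTPRN and CADM3, each lower in HCl3. Of the other adhesion and guidance genes tested, 11 were higher and 3 lower of 90, with a median log2 fold change of 0.07. The summed mesenchymal markers were higher in HCl3 than in Ni-W, as given above, and their part in these differences was not tested. ROBO1 was 4.07-fold lower (log2 −2.02 ± 0.12 SE, DESeq2 adjusted P value 9.56e-58). BOLA1 was 4.03-fold lower (log2 −2.01 ± 0.35, DESeq2 adjusted P value 5.65e-07). PTPRN was 3.77-fold lower (log2 −1.91 ± 0.17, DESeq2 adjusted P value 2.90e-26) and CADM3 2.97-fold lower (log2 −1.57 ± 0.14, DESeq2 adjusted P value 1.06e-26). FOXE1, RTN1 and SLAIN1 were lower by 2.30-fold, 2.08-fold and 2.03-fold, with DESeq2 adjusted P values of 1.58e-05, 1.67e-06 and 7.74e-09. FAM109B (1.88-fold), GALNT3 (1.76-fold) and IPW (1.63-fold) were lower by smaller amounts, with DESeq2 adjusted P values of 0.000989, 0.016 and 0.0318. The call of IPW was lost in 8 of 12 alternative analyses (DESeq2 and edgeR adjusted P values between 0.00758 and 0.568), that of GALNT3 in 8 (0.0083 to 0.409) and that of FAM109B in 4 (5.46e-05 to 0.188). Leaving out any 1 of the 4 libraries ended the calls of IPW and GALNT3, and leaving out Ni-W replicate 1 or either HCl3 replicate ended that of FAM109B.

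The genes called higher in HCl3 were SLC38A5, by 1.75-fold (log2 0.81 ± 0.14, DESeq2 adjusted P value 2.49e-07), and GALC, by 1.57-fold (log2 0.65 ± 0.18, DESeq2 adjusted P value 0.00372). GALC lost its call in 5 of the 12 alternatives, among them each that left out 1 library, with adjusted P values from 0.000575 to 0.372.

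For the other 25 genes no difference of this size was called. SLC12A7 alone of these had an adjusted P value under 0.05 (0.0228), with HCl3 1.23-fold lower (95% interval of the log2 fold change −0.49 to −0.10), below the 1.5-fold threshold. MGMT gave log2 −0.46 (−0.89 to −0.03), EYA2 0.37 (0.04 to 0.71), MARK1 −0.24 (−0.50 to 0.02) and ZNF883 0.03 (−0.40 to 0.47). For 7 of the 25 genes the whole 95% interval lay within a 1.5-fold change either way. For the others the interval reached past 1.5-fold on at least 1 side, so a difference of that size remained possible at this depth. It was widest for SNORD116-4, from −2.74 to 1.39. ZNF347, with log2 −0.72 (−1.26 to −0.18), had an adjusted P value of 0.0509 and was called in 3 of the alternatives.

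**Figure D2:**
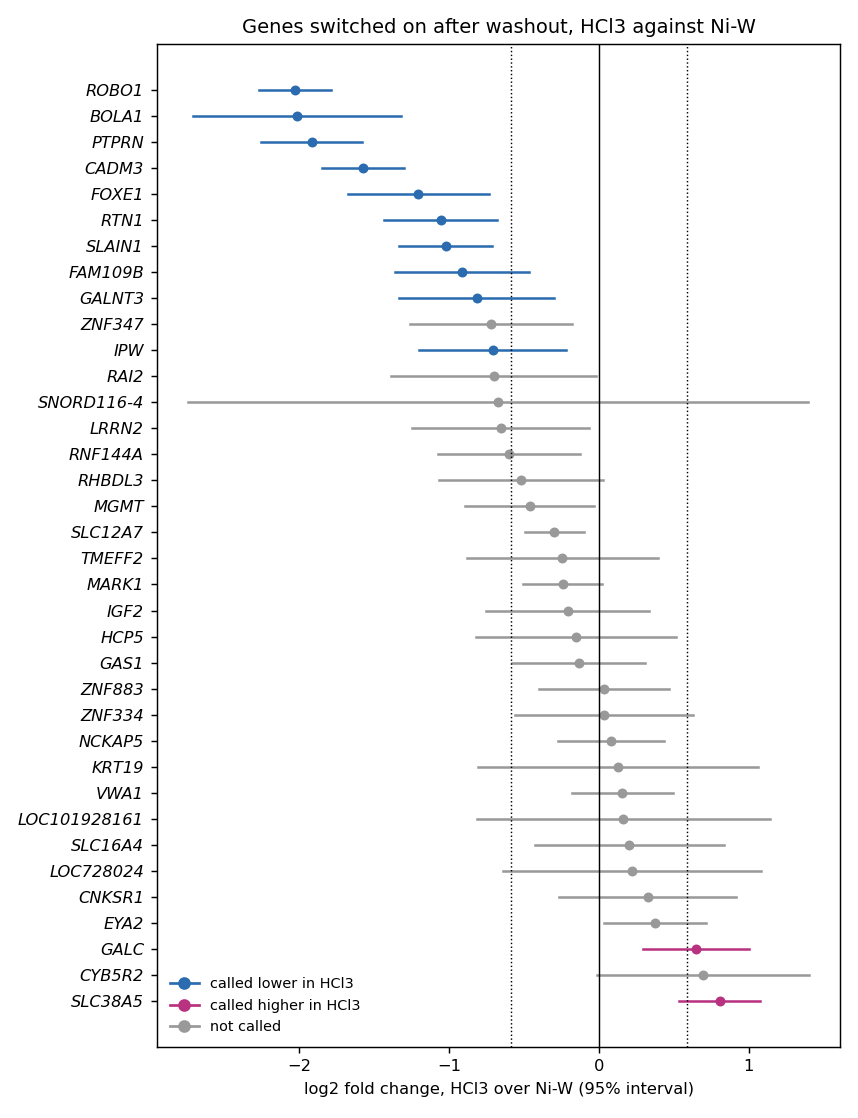
Log2 fold change of HCl3 over Ni-W (horizontal axis, points) with its 95% interval (lines) for 36 of the 37 genes, from DESeq2 on 2 libraries per group. Dotted lines mark a 1.5-fold change, and the 10 genes called lower and the 2 called higher are coloured.

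Replicates were close for most of the 37 genes. The median ratio of the higher to the lower replicate was 1.11 in Ni-W and 1.08 in HCl3. The largest ratios were 1.47 for KRT19 in Ni-W and 2.35 for SNORD116-4 in HCl3. The differences between populations in ROBO1, BOLA1, PTPRN and CADM3 were thus larger than the spread between replicates.

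The genes were mostly scattered over the genome, with 3 pairs of them less than 500 kb apart. NCKAP5 (chromosome 2, 133429372 to 134326031, hg19) overlaps LOC101928161. SNORD116-4 and IPW lie 56.9 kb apart on chromosome 15, and ZNF334 and EYA2 381 kb apart on chromosome 20. ROBO1 spans chromosome 3 from 78646388 to 79817059, SLC38A5 lies at 48316920 to 48328644 on chromosome X, and MGMT at 131265454 to 131565783 on chromosome 10.

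Other genes within 250 kb of one of the 37 genes were then examined to see whether their surroundings rose as well. Of 213 such genes tested in Ni-W against UT, 31 (14.6%) were higher and 5 (2.35%) were lower, where 11.1% of all genes tested were higher and 4.95% lower. In HCl3 against UT, 31 of 205 (15.1%) were higher and 1 (0.488%) was lower, where the shares over all genes were 11.4% and 3.84%. The median log2 fold change of the neighbours was 0.07 in Ni-W and 0.05 in HCl3, near the 0.01 of all genes in both. Most neighbours were thus not called, the share called higher was close to the background, and the share called lower was under it. Both comparisons use the same UT libraries.

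Single neighbours that rose were found beside some of the genes and were chosen after their values were seen. LYPD1, a membrane-anchored modulator of acetylcholine receptors near NCKAP5, had 0.42 and 0.09 RPKM in UT and 0.03 and 0.18 in Ni-E, then 5.74 and 4.73 in Ni-W, while HCl3 had 7.67 and 8.58. SLC2A10, a glucose transporter gene near EYA2 and ZNF334, had 0.37 and 0.34 RPKM in UT and 0.28 and 0.62 in Ni-E, but 4.73 and 4.09 in Ni-W and, in HCl3, 4.56 and 3.96. Both rose in both populations, LYPD1 by log2 4.22 ± 0.95 (SE) in Ni-W and 4.87 ± 0.92 in HCl3, and SLC2A10 by 3.61 ± 0.23 and 3.53 ± 0.23 (each called by DESeq2).

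A group of such neighbours lay around SNORD116-4 and IPW on chromosome 15, in the imprinted Prader-Willi region, where the paternal allele alone is normally expressed. These genes were chosen after the values were seen. SNRPN, which encodes a splicing protein (chromosome 15, 25200135 to 25223729, hg19), had 0.06 and 0 RPKM in UT and 0.22 and 0.16 in Ni-E, against 15.78 and 14.31 in Ni-W as well as 8.72 and 9.37 in HCl3. It was excluded from the list by its Ni-E values alone. SNRPN had 3 reads over the UT libraries and 11 and 7 in the Ni-E libraries, while Ni-W reached 1077 and 660 and HCl3 476 and 534. SNURF, which shares its transcript and coordinates with SNRPN, had nearly the same values. It differed in UT replicate 2, with 0.17 RPKM (2 reads), so a UT value also kept it off the list. PWARSN and PWAR5, noncoding genes between SNRPN and the SNORD116 copies, had at most 0.01 RPKM before washout, 0.28 to 0.43 in Ni-W and 0.13 to 0.21 in HCl3. All 4 were called higher than in UT in both populations by DESeq2. Like SNORD116-4 and IPW, they lie on the plus strand. Whether these genes are parts of 1 transcript was not tested, so they need not be separate events.

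The other genes of the region differed from this pattern. NDN and MAGEL2, which are also expressed from the paternal allele, had no read in any library, and MKRN3 had at most 7 reads before washout and none after it. UBE3A, a ubiquitin ligase gene downstream of IPW, was between 19.55 and 32.44 RPKM throughout and was higher than in UT by log2 0.43 ± 0.13 (SE) in Ni-W and 0.20 ± 0.12 in HCl3, with DESeq2 adjusted P values of 0.00372 and 0.187. Genes outside the imprinted part of the region that were expressed in all libraries were higher after washout by small amounts. TUBGCP5 was higher by log2 0.80 ± 0.15 (SE) in Ni-W and 0.61 ± 0.15 in HCl3, CYFIP1 by 0.58 ± 0.10 and 0.44 ± 0.09, and HERC2 by 0.47 ± 0.11 and 0.36 ± 0.11. NIPA1 was higher by 0.66 ± 0.11 and 0.55 ± 0.11, and NIPA2 by 0.42 ± 0.11 and 0.29 ± 0.10. These 5 genes had a DESeq2 adjusted P value under 0.05 in both populations, and TUBGCP5 in both populations and NIPA1 in Ni-W passed 1.5-fold. Of 78 listed SNORD116 and SNORD115 copies, 68 had no read in any library, and SNORD116-22 had 5 reads in Ni-W replicate 2 and none elsewhere. Such copies are nearly identical and reads with several alignments were removed.

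**Figure D3:**
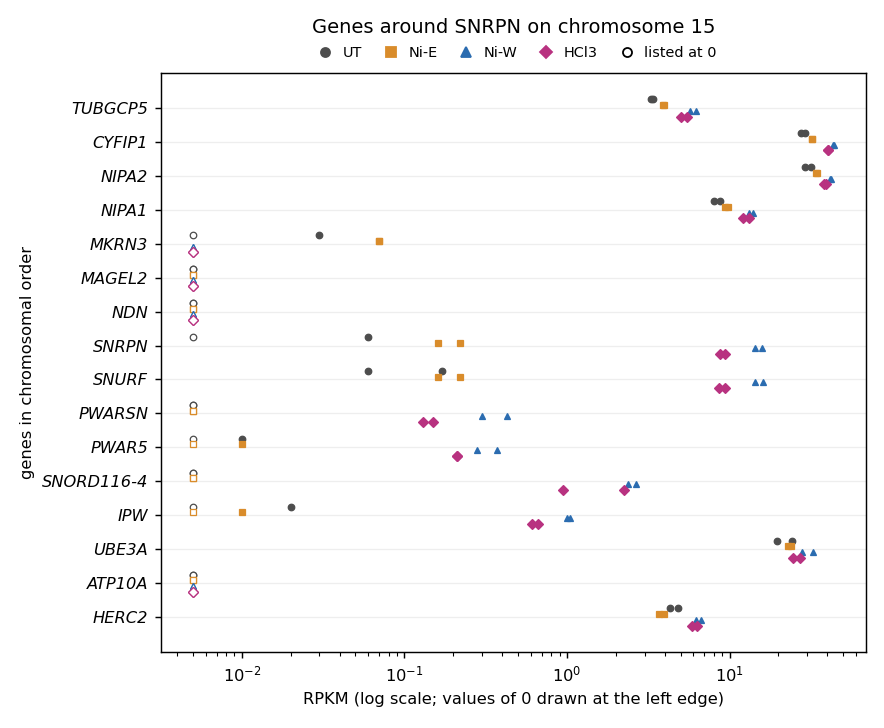
RPKM (horizontal log axis) of genes around SNRPN on chromosome 15 in the 8 libraries, listed in chromosomal order, with 1 point per library and open symbols for values of 0. In each gene drawn from SNRPN to IPW the Ni-W and HCl3 libraries were above the UT and Ni-E libraries, whereas UBE3A was between 19.55 and 32.44 RPKM in all 8.

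IGF2, another imprinted gene on the list, lies on chromosome 11 beside H19, which is expressed from the opposite parental allele. H19 had 0.52 and 0.39 RPKM in UT and 7.26 and 6.43 in Ni-E, then 2.30 and 1.58 in Ni-W, while HCl3 had 9.06 and 10.26. H19 was higher in both Ni-E libraries than in both UT libraries, while IGF2 was at most 0.10 RPKM there, and the order of the groups differed between these neighbours. IGF2 overlaps IGF2-AS, INS-IGF2 and MIR483, and INS-IGF2 had no read in any library.

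Promoter sequences, 1 window per gene at a RefSeq start that need not be the one in use, were available for 28 of the 37 genes. EYA2, FAM109B, IGF2, KRT19, LOC728024, MARK1, RHBDL3 and SNORD116-4 were among those with no matching entry in the table used. A promoter was counted as CpG-rich when at least 50% of its 300 bases were G or C and the ratio of observed to expected CpG was at least 0.6. By this measure 14 of the 28 promoters (50.0%) were CpG-rich, all from coding genes. This made 56.0% of the 25 coding promoters, against 64.8% of all coding genes, 27.4% of coding genes at or below 0.1 RPKM in all 8 libraries, and 84.7% of coding genes at or above 0.5 RPKM in all 8. The coding genes switched on after washout thus lay between the always-silent and the always-expressed genes in this respect, and no test was made.

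**Figure D4:**
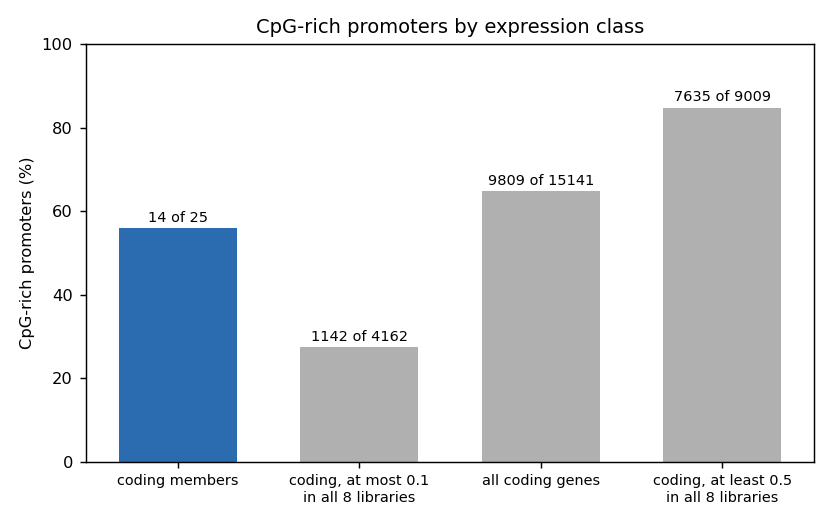
Share of promoters that were CpG-rich (vertical axis, percent) among coding genes by expression class, with the number of promoters above each bar. The coding genes switched on after washout were at 56.0%, above the 27.4% of genes silent in all libraries and below the 84.7% of genes expressed in all.

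Both CpG-rich and CpG-poor promoters occurred along the list, among genes of high and of low washed-out RPKM. The SLC12A7 promoter shown above had 39 CpG at an observed to expected ratio of 0.94, and those of MGMT, VWA1 and RAI2 had 45, 47 and 49 CpG at ratios of 1.06, 1.07 and 0.90. The SLC38A5 promoter had 7 CpG at a ratio of 0.25, RTN1 had 1, SLC16A4 had 3 and IPW had none. The RTN1 window (chr14:59610090-59610389) lies inside the gene span that was counted, which ends at 60337557 in hg19. It thus marks an inner start, and the start in use was not determined. IPW lies downstream of SNRPN on the same strand, so its window need not be a promoter of its own. CADM3 was just under the limit, with 23 CpG at a ratio of 0.59. Genes with no read before washout included CpG-rich promoters (MGMT, GALC and ZNF347) and 1 that missed the limit on G and C (ZNF883).

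Short motifs were searched on both strands of the same 300 bases. The letters GGGCGG, a GC box bound by SP factors, were in 53.6% of the 28 promoters and in 56.1% of all promoters. ACGTG, the core bound by hypoxia-inducible factors, was in 28.6% and 23.6%. TATAAA was in 10.7% and 9.72%, the AP-1 motif TGANTCA in 7.14% and 6.30%, and the E-box CACCTG, bound by ZEB and SNAI repressors, in 6 of 28 and 3472 of 17385. None of the 28 held the CRE motif TGACGTCA, found in 2.50% of all promoters. The shares were close to those of all promoters, and a match is a description and not a binding site.

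The other genes of the families to which the leading genes belong were counted as well. Of the other transporter genes tested in Ni-W against UT, 54 of 319 were higher and 17 were lower, where 11.1% of all genes tested were higher and 4.95% lower. Among the other developmental transcription regulators the numbers were 51 higher and 21 lower of 289, and among the other zinc finger genes 54 higher and 14 lower of 548. Adhesion and guidance genes other than CADM3 and ROBO1 had 20 higher and 4 lower of 94. In HCl3 against UT, where 11.4% of all genes tested were higher and 3.84% lower, the same 4 families had 48, 60, 42 and 27 genes higher and 13, 7, 7 and 4 lower out of 319, 287, 551 and 97. The median log2 fold change of the other genes in Ni-W was 0.00 for transporters, 0.10 for developmental regulators, 0.07 for zinc finger genes and 0.34 for adhesion and guidance genes, against 0.01 for all genes tested.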

How the data were processed

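BEAS-2B cells were profiled by RNA-Seq in 4 groups with 2 biological replicates per group, 8 libraries in all, grouped by the sample labels. The authors aligned reads to hg19 with STAR 2.4 (multi-hits removed) and the RefSeq annotation. The deposited read counts per gene were obtained by the authors with BioWardrobe and are not normalized. The deposited RPKM values were derived by the authors and rounded to 2 decimals. Use of strand was not stated.

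The genes were selected from RPKM as described above. The counts were tested per pair of groups with DESeq2 1.42.0 in R 4.3.3 (two-sided Wald test, Benjamini-Hochberg adjustment over all genes tested), with a gene called at an adjusted P value under 0.05 and at least 1.5-fold, as in the study's methods. On simulated data with 200 genes of 25411 changed 4-fold, DESeq2 recovered 200 with 0 false calls in HCl3 against Ni-W. The simulation gave every gene the same small spread and changed only well-covered genes. It checks the running of the test and does not bear on calls near 1.5-fold. Alternatives used edgeR 4.0.16, TMM size factors, a mean count of at least 10, all 8 libraries, a replicate block, centred trends with GC content and length, and leaving out each library.

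Named genes were the 12 with the highest mean washed-out RPKM, up to 6 called each way between HCl3 and Ni-W, ROBO1 and CADM3, genes within 500 kb of each other, the top 3 of families with at least 3 members, and those nearest the limits. Other genes on the list are given by range, or as called in HCl3 against Ni-W. The genes and lists were chosen with earlier results of these data known. The promoter measures, motifs, the 250 kb window and the imprinted regions were chosen after the values were seen. Total counts set the precision of low values, and intervals cover counting error only. The values of 1 gene on the list, which counts over the 37 genes include, and of some marker genes are not reported here.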

Additional observations from a re-analysis of the deposited data

Results flagged for a closer look

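The difference between the populations was called for 12 of the 37 genes, tested directly as HCl3 against Ni-W with DESeq2, and these are the results to look at again. As log2 fold changes, HCl3 was lower for ROBO1 (−2.02), BOLA1 (−2.01), PTPRN (−1.91), CADM3 (−1.57), FOXE1 (−1.20), RTN1 (−1.05), SLAIN1 (−1.02), FAM109B (−0.91), GALNT3 (−0.81) and IPW (−0.71). HCl3 was higher for SLC38A5 (0.81) and GALC (0.65). Both libraries of HCl3 lay on the same side of both Ni-W libraries for each of the 12 genes, as they did for 61.6% of all genes tested. The labels give HCl3 experiment numbers and Ni-W none, so an effect of the experiment cannot be told apart from the populations. Summed mesenchymal markers were between 1059 and 1261 RPKM in Ni-W and between 1976 and 2011 in HCl3, and their part in these differences was not tested.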

How the results depend on the processing

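Of the 37 genes, between 8 and 17 were called in HCl3 against Ni-W over 12 alternatives, against 12 as reported, and 8 of the 12 were called in every alternative. The number called higher was 1 with a replicate block, and 1 without any 1 of the 4 libraries. Over all genes, 716 calls became 466 with the replicate block and 437 when GC and length trends were removed as well, and 329 to 530 with 1 library left out. Leaving out 1 library gave 1523 to 2197 calls for Ni-W against UT (2491 as reported), 1339 to 2117 for HCl3 against UT (2349) and 354 to 622 for Ni-E against UT (840), where the block gave 491 and the block with GC and length trends 406. With 1 library left out, the lone library of a group is assumed to vary like the others. Library numbers share only a suffix, so the block has no stated basis. Deviations of same-numbered libraries correlated, across genes, at −0.14 for HCl3 and Ni-W, −0.21 for HCl3 and UT, −0.17 for Ni-E and UT and 0.36 for Ni-W and UT. A crossed block, chosen after seeing the data because same-numbered libraries deviated in opposite directions, gave 544 calls and 10 of the 37 genes for HCl3 against Ni-W, 1883 calls for HCl3 against UT and 636 for Ni-E against UT. The rule gave 20 genes with an upper limit of 0.05 RPKM, 71 with 0.2, 17 with a lower limit of 1 RPKM and 68 with 0.3. Among the named genes, with 1 library left out, the HCl3 to Ni-W log2 fold change crossed 0 for IGF2 (−0.49 to 0.025), LOC728024 (−0.026 to 0.43), NCKAP5 (−0.0036 to 0.18), ZNF334 (−0.11, −0.06 and up to 0.18) and ZNF883 (−0.14 to 0.24), none of them called. Of the genes given by range, KRT19 (−0.11 to 0.44) and VWA1 (−0.085 to 0.31) crossed 0 over the alternatives and were not called either. The cause of these changes was not tested, beyond the smaller number of libraries in the fits that left 1 out.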
